A study of Saccharomyces cerevisiae with 6 samples.

Results

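The late change is the difference between the last 2 time points of a yeast time course, 19 and 27 h after loss of the mitochondrial genome (mtDNA). For each gene it is the log2 ratio at 27 h minus the log2 ratio at 19 h, where the ratio sets cells without mtDNA against cells of the same strain with it. Every reading frame with a value at both times was taken, which gave 6199 of 6231 rows and, after spots of 1 gene were averaged, 6186 of 6205 genes. Wild-type (WT) budding yeast of strain UCC1899 was grown in YEPD, a rich glucose medium, and kept at an optical density of at most 1.0. Ethidium bromide, an intercalating dye, at 30 µg/ml for 6 h removed the mtDNA, and cells were sampled at 3, 11, 19 and 27 h. Side values came from 2 other columns. Strain UCC3980, homozygous for ATP1-111, an allele of the gene for the ATP synthase alpha subunit, was measured 27 h after the same loss of mtDNA. Strain UCC3970, with NAR1 under estradiol control, was measured 27 h after transfer from 50 to 2 nM estradiol, against cells kept at 50 nM. NAR1 acts in cytosolic iron-sulfur cluster assembly.

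For each condition the table holds a single ratio per gene that the authors averaged over 6 arrays, with 3 biological replicates labelled each way round (5 arrays for ATP1-111). The late change therefore has no replicate error, and sizes are described without a test unless one is named. The 13 genes with 2 filled rows (each also has 1 row without values) give a partial yardstick: their 26 spots had an SD of 0.17 about their gene's mean late change, and the widest pair lay 0.46 apart. Of the 28 control rows that carry no yeast gene, 20 had both values, and 3 of these passed 2-fold (range -1.14 to 1.87). Single genes near that size are therefore weaker evidence than groups of genes moving together. NAR1 was at -5.01 (log2) in its own repression column and at 0.51, 0.70, 0.88 and 1.17 over the WT times, while ATP1 had a late change of -0.04.

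Yeast that has lost mtDNA cannot respire and lives by fermentation. Iron-sulfur clusters, whose synthesis begins in mitochondria, feed back on the iron regulon, a set of iron uptake genes switched on by Aft1 and Aft2. Another known set, switched off by oxygen and haem in WT cells, covers sterol uptake, the TIR and DAN cell wall mannoproteins and the PAU genes, a large family of small, closely related proteins encoded mostly near chromosome ends. Glycogen and trehalose are storage carbohydrates that yeast builds up under stress and on slow growth.

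PAU genes were the most frequent among genes at least 2-fold higher at 27 h than at 19 h, and 2 sterol uptake genes, HES1 and AUS1, were among the widest late changes. Genes of glycogen and trehalose synthesis stood lower at 27 h than at a high point at 19 h. Most of the response was already in place at 19 h. A late change of at least 2-fold upward was found for 38 genes (0.614% of 6186), and downward for 10 genes (0.162%). At 1.5-fold the counts were 161 (2.6%) and 87 (1.41%), and 96.0% of genes lay within 1.5-fold. The late change was above 0 for 2991 of the 6186 genes and below 0 for 3172. The ratios spread wider with time, and with all columns scaled to a common spread 14 genes were up at 2-fold, and 72 up and 48 down at 1.5-fold. Fewer genes moved than in the steps before, with 117 higher and 37 lower at 2-fold from 3 to 11 h, and 70 and 20 from 11 to 19 h. At the 2-fold limit, PAU13 (1.00) and YER158C (1.00) lay just inside and LEE1 and KTR2 (both 0.99) just outside. On the lower side YOR379C (-1.01) and MTC7 (-1.05) were just inside and GLG1 (-0.98) and GAC1 (-0.97) just outside.

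**Figure D1:**
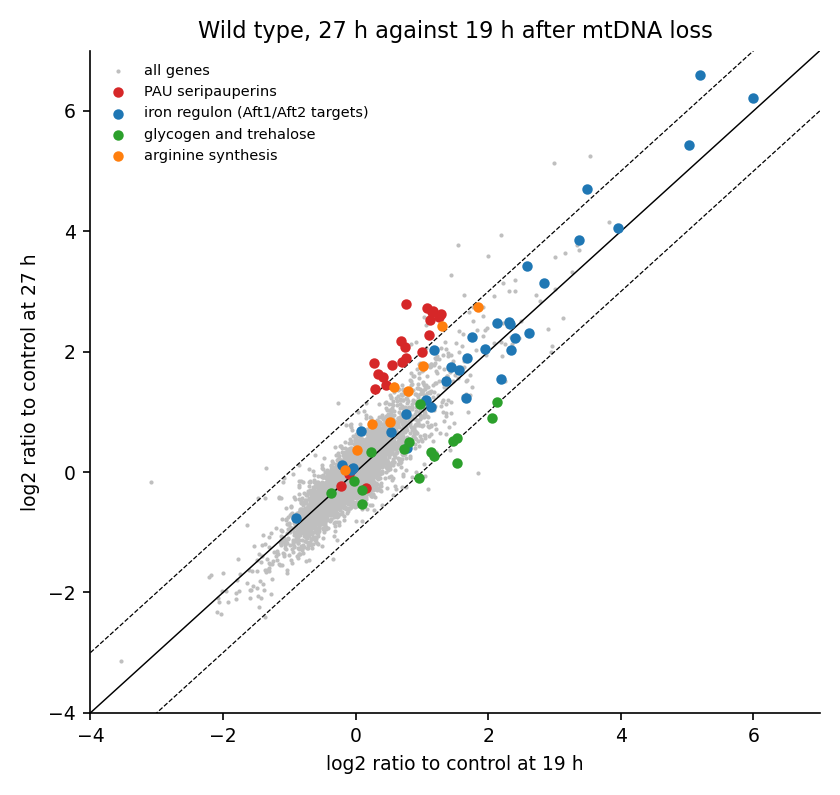
Each point is 1 gene, with its log2 ratio to control cells at 19 h (x axis) and at 27 h (y axis) in WT. The solid line marks no late change and the dashed lines a 2-fold change in either direction. PAU genes lie mostly above the upper dashed line, most iron regulon genes lie near the solid line, and 3 glycogen and trehalose genes lie below the lower dashed line.

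Of the 234 genes at least 2-fold higher than control at 19 h, 61 (26.1%) went at least 1.5-fold further, 150 (64.1%) stayed within 1.5-fold and 23 (9.83%) came back by at least 1.5-fold. Of the 112 genes at least 2-fold lower at 19 h, 7 (6.25%) went further, 95 (84.8%) stayed and 10 (8.93%) came back. Their median late changes were 0.19 and -0.08. Picking genes by the 19 h column itself favours a return, since an error that carries a gene past the limit at 19 h is not repeated at 27 h. Among 76 genes chosen as higher at 11 h instead, 13 went on, 58 stayed and 5 came back, and among 41 chosen as lower there, 2, 34 and 5 did so.

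Of the 15 genes at least 8-fold higher at 19 h, FIT3, FIT1 and TIR4 went on by at least 1.5-fold, and the other 12 stayed within it. The median of the 15 was 0.40, above the 0.19 of all 234 higher genes, though -0.17 with the columns scaled to a common spread, and 10 of the 15 went on at a narrower limit of 0.32 (log2). With that scaling only TIR4 (0.87) went on by 1.5-fold, while FIT3 (0.42) and FIT1 (0.49) did not reach 1.5-fold. The 12 that stayed within 1.5-fold were ARN1, ARN2, SIT1 and ENB1 (siderophore transporters), TIR1, TIR2 and DAN1 (anaerobic mannoproteins), BIO5 (a biotin pathway transporter), MCH5 (a riboflavin transporter), HSP26 (a small heat shock protein), MTH1 (a glucose-sensing regulator) and PRY1 (a secreted sterol-binding protein). MTH1, with a late change of -0.56, was the 1 of the 15 that came back at the narrower limit. With the columns scaled it was at -0.81 and came back by 1.5-fold. HSP26 stood at -1.75, 2.06, 3.82 and 4.16 over the 4 times, a late change of 0.33 after steps far wider than that. On the lower side only LEU1 and YSC84 were at least 8-fold down at 19 h. LEU1, an iron-sulfur enzyme of leucine synthesis, stood at -0.23, -1.92, -3.54 and -3.13. Its late change of 0.41 became -0.61 with the 19 h column left out and the change from 11 to 27 h spread evenly over both steps. YSC84 went from -3.08 to -0.17, the widest late change in the table at 2.92. It had no value at 3 h, at 11 h or in ATP1-111, so its 19 h value cannot be set against a neighbouring time.

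By 27 h, 318 genes were at least 2-fold higher than control, of which 192 had been so at 19 h and 126 had not. Of these 126, 56 had a late change of at least 1.5-fold, and the rest crossed the limit by a smaller step. On the lower side 174 genes with a 19 h value were past 2-fold at 27 h. There 89 had been so already, 85 crossed in the last 8 h, and 10 of those moved by at least 1.5-fold.

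PAU genes made up 18 of the 38 genes that were at least 2-fold higher at 27 h than at 19 h. All but 1 of the 24 listed PAU genes had a row, PAU9 being the exception, and of these 23, 19 passed 1.5-fold upward (2.6% of all genes) and none passed it downward. With the columns scaled to a common spread 6 of the 23 passed 2-fold, and without the 19 h column 10 did, while 19 passed 1.5-fold under both. Their median late change was 1.23, against -0.01 for all genes. Their median log2 ratio stood at 0.33, 0.08, 0.71 and 1.89 over the 4 times, so the last step was also the largest of the 3. PAU5, which led the family, stood at 0.30, 0.13, 0.76 and 2.79, a late change of 2.04. PAU4 stood at 0.20, 0.10, 1.08 and 2.72. PAU10 stood at 0.41, -0.11, 0.28 and 1.81.

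The 18 PAU genes past 2-fold lay between -0.11 and 0.34 at 11 h, between 0.28 and 1.29 at 19 h and between 1.38 and 2.79 at 27 h. They were picked for their late change, so the gap between the last ranges is partly set by that choice. PAU7 lay just short with a late change of 0.99. The remaining 4 stood apart: PAU23 at -0.42, PAU18 at 0.00, PAU24 at 0.06 and PAU6 at 0.11. PAU24 stayed near control throughout, at -0.08, -0.15, -0.09 and -0.04. PAU genes are nearly identical copies of one another, so a spot may report several of them, and 18 spots are not 18 separate measurements. In the other columns the family stayed low, with a median of 0.13 in ATP1-111 (range -0.16 to 0.42) and of 0.45 under NAR1 repression (-0.13 to 0.75). No PAU gene reached 2-fold in either.

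Sterol uptake split in 2 groups. HES1, which encodes an oxysterol-binding protein, stood at 0.10, 0.12, 1.55 and 3.77. AUS1, a sterol importer of anaerobic cells, stood at 0.09, 0.04, 2.19 and 3.94. UPC2, the activator of anaerobic sterol genes, stood at 0.41, 0.60, 1.93 and 2.75. Their late changes were 2.22, 1.75 and 0.82, and each was near flat from 3 to 11 h. The other 4 genes of the list stayed within 1.5-fold: ECM22 (0.04), SUT2 (-0.08), SUT1 (-0.10) and PDR11 (-0.19). PDR11 is the second sterol importer, and it reached only 0.60 at 19 h and 0.41 at 27 h.

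Among the anaerobic mannoproteins, TIR4 alone went on by at least 1.5-fold. It stood at 0.34, 0.16, 3.54 and 5.26, a late change of 1.72. TIR1, TIR2 and DAN1 had come up alongside it by 19 h, at 3.16, 3.01 and 3.33, yet moved only by 0.49, 0.03 and 0.43 in the last step. TIP1 (-0.37), TIR3 (-0.20) and DAN4 (-0.18) were slightly lower at 27 h. The 9 genes, which include PAU23 and PAU24, had a median late change of 0.03. The anaerobic set therefore did not move as 1 block, and the 16 other hypoxic genes, with a median of -0.08, had no member past 1.5-fold in either direction. In ATP1-111, TIR1, TIR2, TIR4 and DAN1 stood at 1.64, 1.39, 1.24 and 1.76 and HES1 at 1.57, while AUS1 (0.38) and UPC2 (0.41) were lower.

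**Figure D2:**
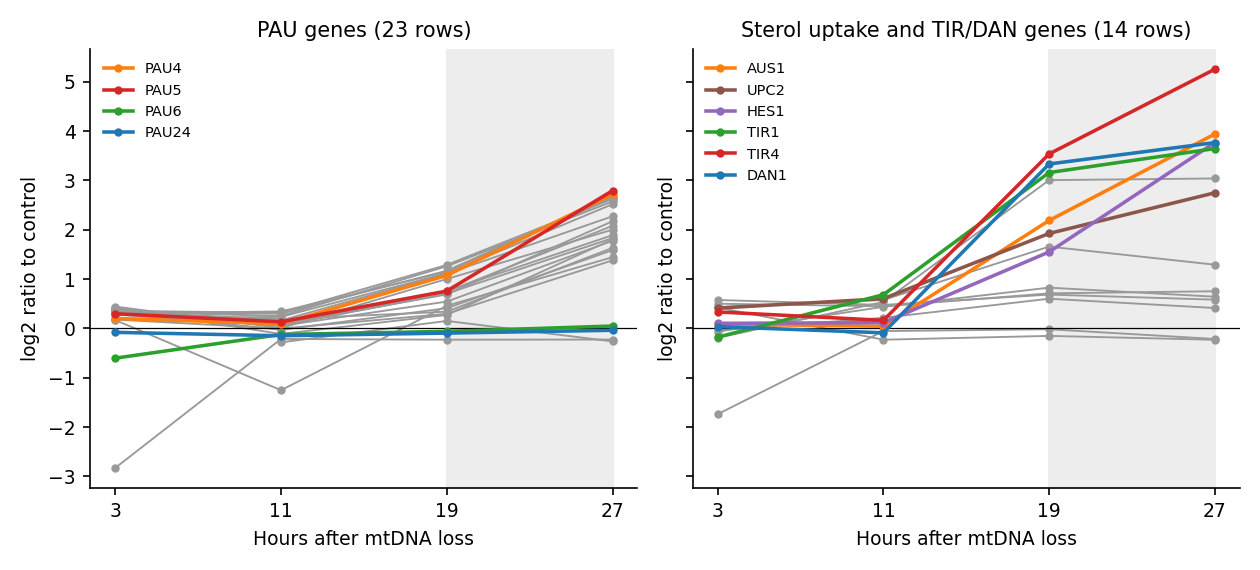
Log2 ratio to control cells (y axis) against hours after mtDNA loss (x axis) in WT, with 1 line per gene and the 19 to 27 h step shaded. Left are the 23 PAU rows, where 18 pass 2-fold in the shaded step while PAU6 and PAU24 stay near 0. Right are sterol uptake, TIR and DAN genes, where TIR4, AUS1 and HES1 climb on and TIR1 and DAN1 flatten.

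Glycogen and trehalose genes were lower at 27 h than at 19 h. Of 16 listed genes, 9 were at least 1.5-fold lower at 27 h than at 19 h (1.41% of all genes), 3 of them at least 2-fold, and none was higher by that much. The list's median late change was -0.72, after medians of 0.61 and 0.52 in the first and second steps. GSY1, a glycogen synthase, stood at -1.30, 0.23, 1.53 and 0.15. Its paralogue GSY2 stood at -1.02, 0.40, 0.96 and -0.10. GLC3, the branching enzyme, stood at -0.73, 0.82, 2.05 and 0.90. All 3 peaked at 19 h, and the first 2 were back near control at 27 h.

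The other 6 were GLG1, which primes glycogen, at -0.98, GAC1, which directs the phosphatase that activates glycogen synthase, at -0.97, and PGM2, phosphoglucomutase, at -0.94. TSL1 and TPS2 of the trehalose synthase complex followed at -0.91 and -0.82, and UGP1, which makes UDP-glucose, at -0.62. All 9 thus serve synthesis or its control. Another 3 genes of synthesis stayed within 1.5-fold: TPS3 (-0.40), TPS1 (-0.30) and GLG2, the second glycogenin, at 0.03. So did the 4 listed genes for breakdown, with glycogen phosphorylase GPH1 at -0.34, trehalase genes NTH2 at -0.13 and NTH1 at 0.16, and debranching enzyme GDB1 at 0.10. NTH1 stood at 0.04, 0.60, 0.97 and 1.14 and showed no reversal.

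These values rest on the 19 h column. With that column left out, and the change from 11 to 27 h spread evenly over both steps, the list's median was 0.05, and GLC3 (0.04), GAC1 (0.22) and PGM2 (0.08) lay above 0. Seen from 11 h, the list was thus near level, with its excess in 1 column, and whether that column stands apart for another reason was not tested. The same holds for most of the 10 genes past 2-fold downward, 7 of which had moved up by at least 1.5-fold from 11 to 19 h. Of the 37 genes past 2-fold upward with an 11 h value, 34 still passed 1.5-fold with the 19 h column left out. That value keeps the 27 h column by which they were picked. It also takes in the step from 11 to 19 h, in which 33 of the 37 had moved up. It is therefore no separate support for their late change.

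The environmental stress response list, which overlaps the one above, had the same dependence. Of its 33 genes with a late change, 8 were at least 1.5-fold lower (1.41% of all genes) and none higher. The lowest of these, GLC3, GSY2, PGM2, TSL1 and TPS2, were all glycogen and trehalose genes already counted above. The list's median of -0.31 became 0.04 without the 19 h column. Members differed: HSP12, a small heat shock protein, was at 0.57 (-0.14 without the 19 h column) and HSP26 at 0.33. Outside this list, DCS2, a stress-induced regulator of mRNA decapping, stood at -0.22, 0.37, 1.43 and 0.36. HAP4, the activator of respiratory genes and also outside it, stood at -0.78, 1.06, 1.21 and 0.34. Of the 23 respiratory chain genes, 22 had a late change below 0, where 3172 of all 6186 genes did. Their median was -0.28 (-0.09 with the columns scaled to a common spread), after 0.06 and -0.44 in the steps before, and none passed 1.5-fold. Their fall was thus wider from 11 to 19 h, while HAP4 was still high, and a link between them was not tested. COR1, a subunit of complex III, had the lowest late change of the 23, at -0.77, -0.69, -1.38 and -1.95.

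**Figure D3:**
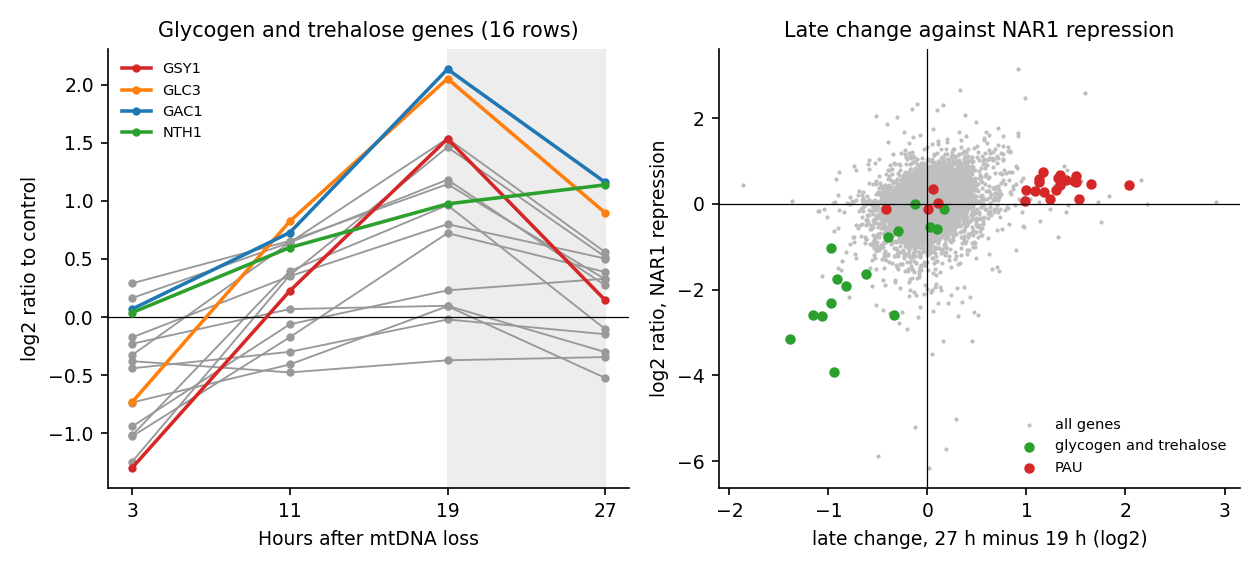
Left, log2 ratio to control cells against hours after mtDNA loss for the 16 glycogen and trehalose genes in WT, with the 19 to 27 h step shaded. Most lines peak at 19 h, and NTH1 does not. Right, each gene's late change (x axis, log2) against its log2 ratio under NAR1 repression (y axis), where glycogen and trehalose genes with the lowest late changes also lie low on the y axis.

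Genes that were lower at 27 h than at 19 h in WT were often below control under NAR1 repression, in another strain with its own controls. The first value is a step between 2 times and the second a level against control. Of the 86 genes at least 1.5-fold lower late that had a value there, 17 (19.8%) were at least 2-fold lower under NAR1 repression, against 3.7% of all genes, and they made up 7.42% of the 229 genes lower there. All 9 glycogen and trehalose genes named above were among them, from GLG1 at -1.02 to PGM2 at -3.92. Their levels against control were unlike, with a median of -2.30 under NAR1 repression and of 0.33 in WT at 27 h. In WT at 27 h, 7 of the 9 were above 0. Without the 19 h column their median late change was -0.04. The others were DCS2, RPI1, HAP4, PDR15, YKL036C, SOL4, USV1 and YDR133C. PGM2 also belongs to the galactose genes, whose 9 measured members had a median of -3.92 when estradiol was lowered, and how far the lower estradiol itself moved other genes was not tested.

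On the upper side, 33 of the 161 genes at least 1.5-fold higher late (20.5%) were at least 2-fold higher under NAR1 repression, against 2.18% of all genes, and they were 24.4% of the 135 genes higher there. The overlap did not extend to the widest late changes: of the 38 genes at least 2-fold higher late, 1 (2.63%) was at least 2-fold higher under NAR1 repression. YOR338W led when the 33 genes were ranked by the smaller of the 2 values, with 0.43, 1.35, 2.00 and 3.60 over the WT times and 2.58 under NAR1 repression. KTR2, a mannosyltransferase gene (late change 0.99), NCA3 (0.91), COM2 (0.92) and AQR1, a multidrug transporter gene (0.91), followed. They were picked here after their values were seen. YJR027W, YBL005W-B and YMR045C came soon after with near-equal values. They stood at 0.96, 0.97 and 0.99 at 19 h, at 1.80 each at 27 h, and at 1.24, 1.20 and 1.34 under NAR1 repression. Whether such spots report the same sequence was not tested, so the 33 genes may not be 33 separate measurements. Over the 6151 genes with all 6 values, the late change and the NAR1 column correlated at r = 0.26, a description across genes that are not independent. With the ATP1-111 column r was 0.10. Of the 37 genes at least 2-fold higher late with an ATP1-111 value, 5 (13.5%) were at least 2-fold higher in ATP1-111, where 0.696% of all genes were. At the 1.5-fold late limit 7 of 159 genes (4.40%) were.

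Iron regulon genes moved less in the last step than in the steps before. Of 33 with a row, 5 were at least 1.5-fold higher at 27 h than at 19 h (2.6% of all genes) and 1 was lower (1.41%). The list's median late change was 0.15, after 0.74 and 0.79 in the steps before, and its level at 27 h was 2.03. FIT3, which encodes a cell wall mannoprotein that retains siderophore iron, went on, at 1.08, 4.41, 5.20 and 6.60. FIT1, of the same kind, stood at 0.76, 1.97, 3.49 and 4.70. FRE2, a metal reductase, was higher by 0.83, ISU1, a scaffold for iron-sulfur cluster assembly, by 0.85, and BNA2, of NAD synthesis, by 0.61.

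Siderophore transporters stayed within 1.5-fold at high values, though each was higher at 27 h than at 19 h in the ratios as given. That direction was not firm: with the columns scaled to a common spread ARN2 was at -0.58 and SIT1 at -0.42. ARN2 stood at 1.33, 4.28, 5.99 and 6.21, ARN1 moved from 5.03 to 5.43, SIT1 from 3.95 to 4.05 and ENB1 from 3.37 to 3.85. FRE3, another reductase, came back from 2.19 to 1.54. Its 11 h value was 0.74, and without the 19 h column its late change was 0.40. With all columns scaled to a common spread the iron regulon's median was -0.05, so a small overall move in either direction is within what the scaling decides. Without the 19 h column it was 0.46. That value averages the last 2 steps of each gene, so it cannot show how far the list slowed after 19 h.

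Iron-sulfur proteins also moved little from 19 to 27 h. Their 26 genes had a median of -0.06, after -0.23 and -0.39 in the steps before, and only DNA2 passed 1.5-fold. Without the 19 h column the median was -0.24. That value averages the last 2 steps of each gene, so it cannot show whether the list levelled at 19 h. DNA2, a nuclease and helicase of DNA replication, stood at 0.40, 0.22, 1.84 and -0.02, so its late change of -1.86, the lowest in the table, followed a single high value. BIO2, biotin synthase, moved from -2.18 to -1.70 (a late change of 0.48, or -0.23 without the 19 h column), while SDH2, the iron-sulfur subunit of succinate dehydrogenase, moved from -0.85 to -1.36. Retrograde signalling targets, which respond to mitochondrial dysfunction, had a median of 0.05 over 12 genes. CIT2, peroxisomal citrate synthase and the usual reporter of that pathway, stood at 0.00, 1.23, 1.52 and 2.14 and alone passed 1.5-fold.

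Arginine synthesis genes stood higher at 27 h than at 19 h. All 9 had a late change above 0, with a median of 0.55 after 0.26 and 0.60 in the steps before (0.39 with the columns scaled to a common spread), and 4 passed 1.5-fold upward (2.6% of all genes). ARG1, argininosuccinate synthetase, stood at -0.46, -0.20, 1.30 and 2.44. CPA1, a subunit of the carbamoyl phosphate synthetase of this pathway, moved from 1.85 at 19 h to 2.75 at 27 h. ARG56 (late change 0.84) and ARG3 (0.74) were the other 2. In ATP1-111 the list's median level was -0.54 and under NAR1 repression -0.30, below control in both, where WT at 27 h stood at 1.35.

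Biotin genes were all higher late as well, 5 of 5, with a median of 0.48 (0.28 with the columns scaled, 0.29 without the 19 h column, where BIO2 was below 0). BIO3 (0.72) alone passed 1.5-fold, and VHT1, the biotin importer, stood at 0.12, 0.28, 1.07 and 1.60. Among 17 amino acid permeases the median was 0.28, and 14 were above 0 (2991 of all 6186 genes were). BAP2, a branched-chain amino acid permease, was the 1 past 1.5-fold (0.75), at 0.37, 0.37, 0.70 and 1.45.

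Purine synthesis was lower late. Its 15 genes had a median of -0.35, after -0.10 and 0.03, with 3 at least 1.5-fold lower (1.41% of all genes) and none higher. MTD1, a one-carbon enzyme, stood at -0.41, -0.08, 0.09 and -0.81. ADE2 moved from -0.51 to -1.23 and ADE17 from -1.04 to -1.68. The median was -0.20 with the columns scaled to a common spread and -0.10 without the 19 h column.

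Growth genes had mostly levelled off. Ribosomal proteins of the cytosol (138 genes) had a median late change of 0.03 after -0.60 and -0.21, and none passed 1.5-fold. The 62 ribosome biogenesis genes had a median of 0.19 after -0.31 in the step before, but of -0.07 without the 19 h column. Of these 62, 50 were above 0 (2991 of all 6186 genes were), and NSR1, a nucleolar protein gene, alone passed 1.5-fold (0.60). Ergosterol synthesis stood at a median of -0.02 over 23 genes after -0.20 and -0.24. Without the 19 h column it was -0.23, which averages the last 2 steps of each gene and cannot show levelling. ERG12, mevalonate kinase, was alone past 1.5-fold (0.75, but -0.37 without the 19 h column). Medians this near 0 have no firm direction: with the columns scaled to a common spread they changed sign for ergosterol synthesis (0.06), iron-sulfur proteins (0.07), retrograde targets (-0.06), anaerobic mannoproteins (-0.14) and other hypoxic genes (0.00).

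**Figure D4:**
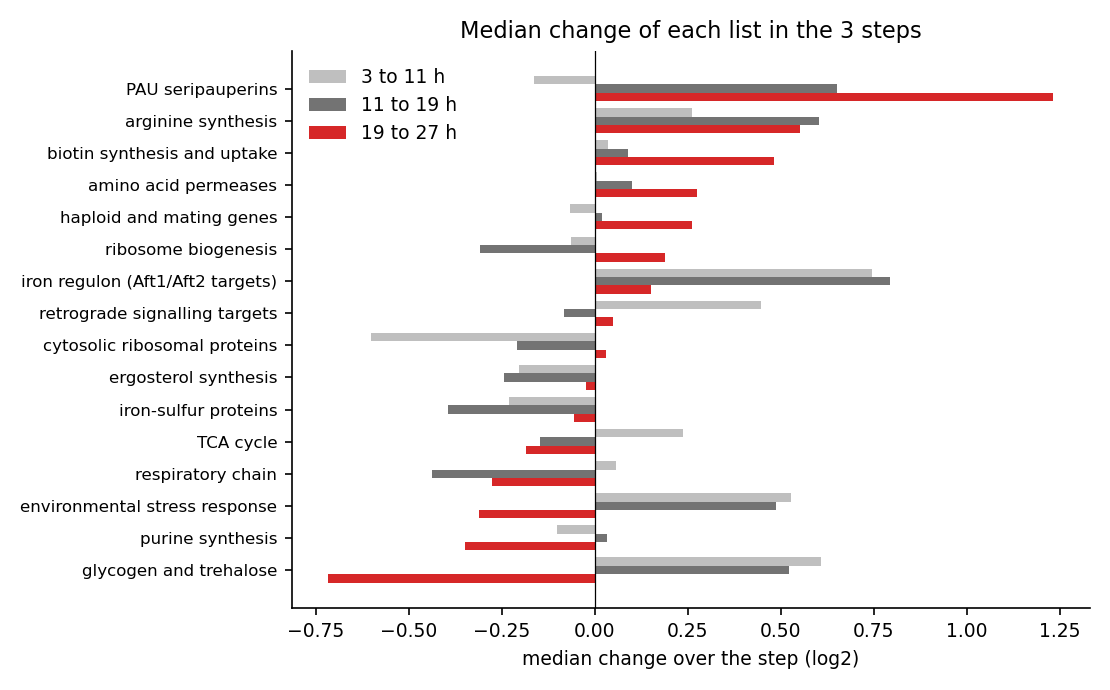
Bars give the median change of each list's genes (x axis, log2) over the steps from 3 to 11 h, 11 to 19 h and 19 to 27 h in WT, each step lasting 8 h. The PAU bar is longest in the last step, the iron regulon and ribosomal protein bars are shortest there, and the glycogen and trehalose bar changes side.

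Mating genes, a marker of haploid cell identity, had a median of 0.26 over 26 genes, and 20 were above 0 (2991 of all 6186 genes were). No spot brightness was used, so how near these genes lay to the detection limit is unknown, and a change of cell identity was not tested. FUS1 and FUS3, which act in cell fusion and pheromone signalling, were higher by 0.72 and 0.78. MFA2, an a-factor gene, was lower by 1.11 on a 19 h value of 1.04, with -0.49 at 11 h and -0.06 at 27 h, so its low late change followed 1 high column, as for DNA2. PRM7, a pheromone-regulated membrane protein gene, stood at 3.24, 2.12, 1.44 and 3.27, a late change of 1.83 that undid an earlier decline.

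Other genes past 2-fold upward had varied roles. SNO1, of vitamin B6 metabolism, stood at -0.26, 0.22, 0.84 and 2.13. NFT1, a putative ABC transporter gene, stood at -0.01, -0.19, 1.03 and 2.58. PHO89, a sodium and phosphate cotransporter gene, stood at 1.30, -0.35, 1.63 and 2.95. PBI1 stood at 0.94, -0.55, 2.99 and 5.14, with a late change of 2.15 that was the widest after YSC84 and HES1. DTR1, a transporter gene of spore wall formation, stood at -0.15, -0.14, -1.36 and 0.06. Its late change of 1.42 thus followed a single low value and was 0.10 without the 19 h column.

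**Figure D5:**
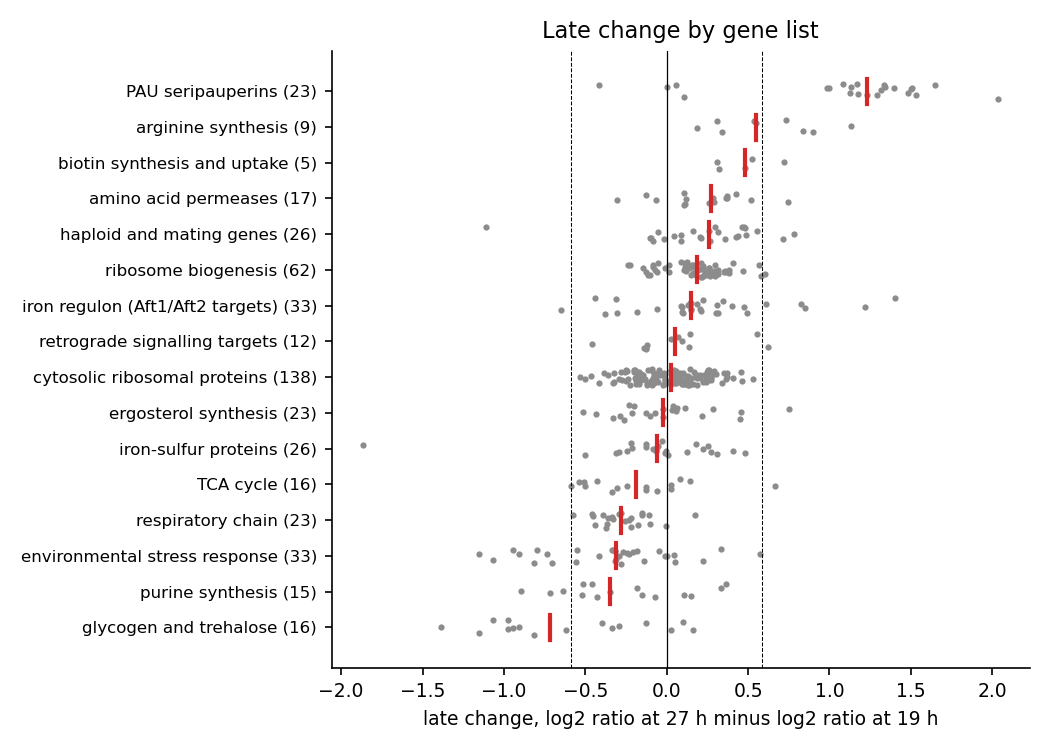
Each point is the late change of 1 gene (x axis, log2 ratio at 27 h minus log2 ratio at 19 h), by gene list, with the number of genes in brackets. Red bars are medians and dashed lines mark 1.5-fold in either direction. PAU genes lie almost wholly beyond the right line and 9 of the 16 glycogen and trehalose genes beyond the left one.

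A test was possible only across the time course. A curve in hours was fitted to the 4 WT columns with limma, which left 1 residual degree of freedom per gene, and its step from 19 to 27 h was tested over 6151 genes. No gene passed an adjusted p of 0.05 in either direction (0% called), with 423 genes up and 347 down at an unadjusted p under 0.05. HES1 was fitted at 2.35 with a standard error of 0.13, and its adjusted p of 0.0885 in limma was the smallest reached. Apart from HES1, the 8 other genes under 0.1 were all PAU genes. No gene passed the test of the late step against the first step in either direction (0% called), with 384 up and 384 down at an unadjusted p under 0.05 in limma. With hours on a log2 scale 52 genes passed upward and 4 downward. Those upward included AUS1, TIR4, HES1, UPC2, FIT1, ARG1 and PHO89. The outcome of this test therefore hangs on the shape given to time.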

How the data were processed

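The authors deposited 1 table of linear ratios, treated over control cells, for 6 columns and 6259 rows. Per the labels, each ratio averages 2-colour arrays in both dye orientations, so dye effects enter evenly in all but the ATP1-111 column. Total RNA was extracted with acid phenol, per the labels' protocols. How the arrays were background-corrected, normalized and averaged is not given in the sources used here, and no spot brightness was used. A ratio shows change relative to other transcripts. Whether the WT times share a control RNA was also not given. A control shared by both times cancels in the late change.

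Titles of the samples gave the direction. The 28 control rows were left out, ratios were taken to log2 and spots of 1 gene were averaged. Of 6205 genes, 5705 took a symbol from the R64 gene table by locus tag, which was also used for gene order. The 52 gene lists (1174 of 1182 members with a row) and the members described were chosen with earlier results of these data known. Lists are described by counts and medians beside those of all genes. Calls by size used 2-fold, and 1.5-fold for lists and for going on, levelling or coming back.

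limma 3.58.1 (R 4.3.3) fitted a quadratic in hours to the 4 WT columns, with eBayes and Benjamini-Hochberg adjustment over 6151 genes. It treats columns as samples. The code was tested on simulated data. Alternatives were median centring, scaling columns to a common spread, leaving out the 19 h column, other fold limits, other ways to pick responding genes, ordinary least squares, log2 hours and a straight line.

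Genes were named by rule: the 15 highest and 15 lowest late changes among genes with all 6 values, the 10 highest and 10 lowest at 27 h, the 5 members with the widest late change in each list, all members of lists of up to 12, NAR1, ATP1 and CIT2, and genes behind counts of 5 or fewer. Other genes named were chosen after their values were seen. Promoter sequences were not analysed here.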

Additional observations from a re-analysis of the deposited data

How the results depend on the processing

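Centring the columns, requiring all 6 values or using only genes with 1 spot kept the 2-fold and 1.5-fold counts within 1.5 times. Scaling the columns to a common spread, which takes out the widening of the ratios with time, left 14 genes up at 2-fold, and 72 up and 48 down at 1.5-fold. At 3-fold 9 genes were up and 1 down. Without the 19 h column 0 genes were down at 2-fold and 23 were down at 1.5-fold, and among lists and genes named by rule with a late change past 1.5-fold the following turned sign: glycogen and trehalose (median 0.051), GLC3 (0.037), MFA2 (0.21), GAC1 (0.22), PGM2 (0.079), FRE3 (0.40) and ERG12 (-0.37). Counting smaller values, 13 of 52 list medians and 65 of 332 genes named by rule turned, among them the environmental stress response (0.04) and ribosome biogenesis (-0.07), and YCF1, outside that rule, went from 1.03 to -0.20. Of higher genes the share that went on was 17.1% when chosen at 11 h, 7.6% with scaling and 40.2% with the limit for movement narrowed to 0.32 on the log2 scale. At that narrower limit 40.2% levelled off and 19.7% came back, while 3.8% came back when genes were chosen by the mean of 19 and 27 h. Of lower genes 1.5% went on with scaling and 19.6% at the narrower limit, and 1.6% (mean) and 15.2% (narrower limit) came back. In the time course fit, ordinary least squares called 1 gene up (BOP3, fitted at 0.46), also the 1 gene up for the late against the first step. Log2 hours called 52 up and 4 down, and a straight line, which gives every step the same slope, 285 and 161. No paired analysis was possible because each group has 1 column, and no replicate could be left out for the same reason. Spot brightness was not used, so what signal limits is unknown.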

Other observations

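Genes near chromosome ends were more often higher late, also without the PAU family. Among the 302 genes other than PAU within the outermost 10 genes of a chromosome end, 22 (7.28%) were at least 1.5-fold higher at 27 h than at 19 h and 4 were lower, with a median late change of 0.07. Of the 5361 other genes elsewhere in the gene order, 113 (2.11%) were higher by that much, with a median of -0.01. Of the 23 PAU rows, 18 lay in the outermost 10, and 15 of these passed 2-fold. The 5 PAU genes elsewhere included 3 past 2-fold. Sequences near chromosome ends are often repeated, so a spot may report more than 1 locus. These values were looked at after the PAU result was known, and no test was made.

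Some genes past 1.5-fold were direct neighbours. CTF13 (late change 1.13), SNO1 (1.29), SNZ1 (0.61) and MTG1 (0.94) follow one another in the R64 gene order. NFT1 (1.55) lies next to YKR104W (1.38), PCA1 (0.79) next to PHO89 (1.32), PRM7 (1.83) next to BSC1 (0.62), and TEA1 (0.91) next to YOR338W (1.59). TIR4 (1.72) and AUS1 (1.75) are separated only by TIR2, at 0.03. FIT3 (1.40) and YOR385W (0.98) flank FRE5, at -0.31. Neighbours in this list were picked because both passed 1.5-fold in the same direction, so they say nothing of how often neighbours move together.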
